A study of Homo sapiens with 4 samples.

Results

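Glutathione S-transferases join glutathione, the main small thiol of the cell, to electrophilic compounds, and the conjugates are then pumped out of the cell and trimmed. The cytosolic enzymes are grouped by sequence into classes such as pi, mu, omega and zeta, the kappa enzyme belongs to mitochondria and peroxisomes, and the microsomal enzymes are unrelated proteins of internal membranes. In liver, hepatocytes are known for alpha class enzymes and bile duct cells for the pi class enzyme GSTP1, and tumor cells often carry much GSTP1. A set of 10 genes of the family was described here, namely GSTP1, GSTM1, GSTM2, GSTM3, GSTM4, GSTO1, GSTK1, GSTZ1, MGST1 and MGST3. They were found by their Entrez identifiers, and all 10 were listed among the 16658 genes of the deposited table. On GRCh38.p14 (RefSeq) the mu class genes lie at chr1:109656099-109667727 (GSTM4), chr1:109668057-109683997 (GSTM2), chr1:109687817-109693745 (GSTM1) and chr1:109733937-109741038 (GSTM3). The others are GSTP1 (chr11:67583812-67586653), GSTO1 (chr10:104254173-104267455), GSTK1 (chr7:143263441-143269115), GSTZ1 (chr14:77321036-77331597), MGST1 (chr12:16347115-16593331) and MGST3 (chr1:165631234-165656136).

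RNA was sequenced from wild-type cells (WT) and from ZCCHC4 KO1 cells, both labelled as the human liver tumor cell line HepG2 and both untreated, with 2 libraries per group. ZCCHC4 KO1 is 1 of the knockout lines that the study made with CRISPR/Cas9, so loss of ZCCHC4 and any other property of this line cannot be told apart. Nothing in the labels says that the libraries of a group came from separate cultures, so the p-values below measure only the spread between these libraries. Expression is given in FPKM, a fragment count scaled to transcript length and library total, a unit that allows levels of different genes to be compared, and the depth of the libraries is unknown.

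The FPKM of ZCCHC4 itself was 7.22 and 5.44 in the WT libraries, against 1.08 and 2.29 in the knockout libraries (log2 fold change -1.48, adjusted p = 0.0448, limma), with both knockout libraries below both WT libraries, and the call was lost without ZCCHC4 KO1 replicate 1 (adjusted p = 0.0514, limma). Of 20 hepatocyte markers, 12 were listed, and 11 of these stayed below an FPKM of 1 in all 4 libraries, with a highest value of 0.72, so markers that define hepatocytes were at or near 0, among them AFP at 0.05 or less and SERPINA1 at 0.03 or less, which goes against the HepG2 label. The exception was CPS1, the first enzyme of the urea cycle, at 275.2 and 244.9 in the WT libraries, against 127.7 and 178.8 in the knockout libraries. Of 8 markers of bile duct and simple epithelium, KRT7, KRT8 and KRT18 were tested and not called, with summed marker FPKM of 5244 and 6095 for WT cells and of 9260 and 7070 for the knockout, and EPCAM, KRT19 and SOX9 were at 0.11 or less. The part of these differences in the results below was not tested. The alpha class genes GSTA1, GSTA2, GSTA3 and GSTA5 were not analysed here. Within each group the libraries also differed with transcript GC content (Spearman correlation of GC content with replicate 2 minus replicate 1 across 10559 genes of 0.725 in WT and -0.783 in ZCCHC4 KO1), and the GC content of the members is therefore given beside their values.

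The members of the mu class lie side by side on chromosome 1 and resemble each other closely, which bears on how reads can be assigned to them. A stretch of 60 coding bases of the GENCODE transcripts is shown for the whole class, from coding base 13 in GSTM1, GSTM2, GSTM4 and GSTM5 and from coding base 25 in GSTM3, with capitals at the bases that differ from GSTM1.
GSTM1: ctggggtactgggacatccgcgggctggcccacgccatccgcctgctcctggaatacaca
GSTM2: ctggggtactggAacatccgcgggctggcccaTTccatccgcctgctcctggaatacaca
GSTM3: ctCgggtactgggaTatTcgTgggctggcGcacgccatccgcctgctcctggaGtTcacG
GSTM4: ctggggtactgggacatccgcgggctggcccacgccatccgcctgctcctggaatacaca
GSTM5: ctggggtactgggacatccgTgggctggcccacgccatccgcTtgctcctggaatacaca
In this stretch GSTM4 had 0 differences from GSTM1, GSTM5 had 2, GSTM2 had 3 and GSTM3 had 8. Over the whole coding sequence GSTM1 was 92.2% identical to GSTM4 and 89.9% to GSTM2 but 72.6% to GSTM3. Of all windows of 50 bases in the GSTM1 transcript, 57.9% also occurred in another mu class transcript, against 46.1% in GSTM2, 18.7% in GSTM4 and 0 of 4073 windows in GSTM3. The values of GSTM1, GSTM2 and GSTM4 are therefore uncertain one by one, and their sum is given too, while GSTM3 shared no window of this length.

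The upstream sequences of 3 members are shown because GSTP1 was the most abundant member and GSTM1 and GSTM3, neighbours in 1 gene cluster, had fold changes of opposite sign. Each is the 250 bases before the RefSeq start on GRCh38.p14, with the core of the antioxidant response element (TGACNNNGC, either strand), to which NRF2 is known to bind, in capitals. The positions are chr11:67583562-67583811 (plus strand) for GSTP1, chr1:109687567-109687816 (plus strand) for GSTM1 and chr1:109741039-109741288 (minus strand) for GSTM3.
GSTP1: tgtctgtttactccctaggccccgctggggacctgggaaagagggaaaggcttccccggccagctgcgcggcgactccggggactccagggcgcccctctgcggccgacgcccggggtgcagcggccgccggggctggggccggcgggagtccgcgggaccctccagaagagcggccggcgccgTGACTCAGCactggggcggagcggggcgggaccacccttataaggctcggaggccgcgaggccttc
GSTM1: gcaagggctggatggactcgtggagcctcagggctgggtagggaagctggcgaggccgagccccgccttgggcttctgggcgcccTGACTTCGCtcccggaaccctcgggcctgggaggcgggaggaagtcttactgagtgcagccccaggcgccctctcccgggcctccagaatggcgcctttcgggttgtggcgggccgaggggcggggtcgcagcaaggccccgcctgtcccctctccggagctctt
GSTM3: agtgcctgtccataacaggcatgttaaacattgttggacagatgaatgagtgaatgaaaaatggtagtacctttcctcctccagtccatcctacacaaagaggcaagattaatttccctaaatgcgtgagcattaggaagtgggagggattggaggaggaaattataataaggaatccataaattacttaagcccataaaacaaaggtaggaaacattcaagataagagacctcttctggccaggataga
The core had 1 match in GSTP1, 66 bases before the start, 1 match in GSTM1, 165 bases before it, and 2 matches in GSTO1, whose entry (chr10:104254642-104254891) begins inside the span of the gene given above, and no match in the entries of the other members, against 10.9% of 35116 promoters of the same length. The match in GSTP1 overlapped an AP-1 site (TGACTCA), found in 4.20% of all promoters. GSTP1 held 28 CpG dinucleotides, GSTM1 held 19 and GSTM3 held 1, where the median of all promoters was 11.

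GSTP1, the pi class enzyme, was the most abundant of the set, and the 2 microsomal genes followed. In WT cells the order of mean FPKM was GSTP1, MGST1, MGST3, GSTO1, GSTK1, GSTM3, GSTM1, GSTZ1, GSTM4 and GSTM2, and in this order only GSTZ1 and GSTM4 overlapped as neighbours in their 2 libraries. In ZCCHC4 KO1 cells GSTM3 moved from place 6 to place 4, and MGST1 with MGST3, GSTM3 with GSTO1, and GSTZ1 with GSTM4 were neighbours that overlapped. GSTP1 was 3.06-fold above MGST1 in mean FPKM in WT and 3.99-fold above it in ZCCHC4 KO1. The knockout libraries differed, with GSTP1 at 516.5 and 382.8 and MGST1 at 96.4 and 128.8, and the ratios of single libraries overlapped between the groups. By mean FPKM, GSTP1 ranked 154 among all listed genes in WT and 171 in ZCCHC4 KO1.

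**Figure D1:**
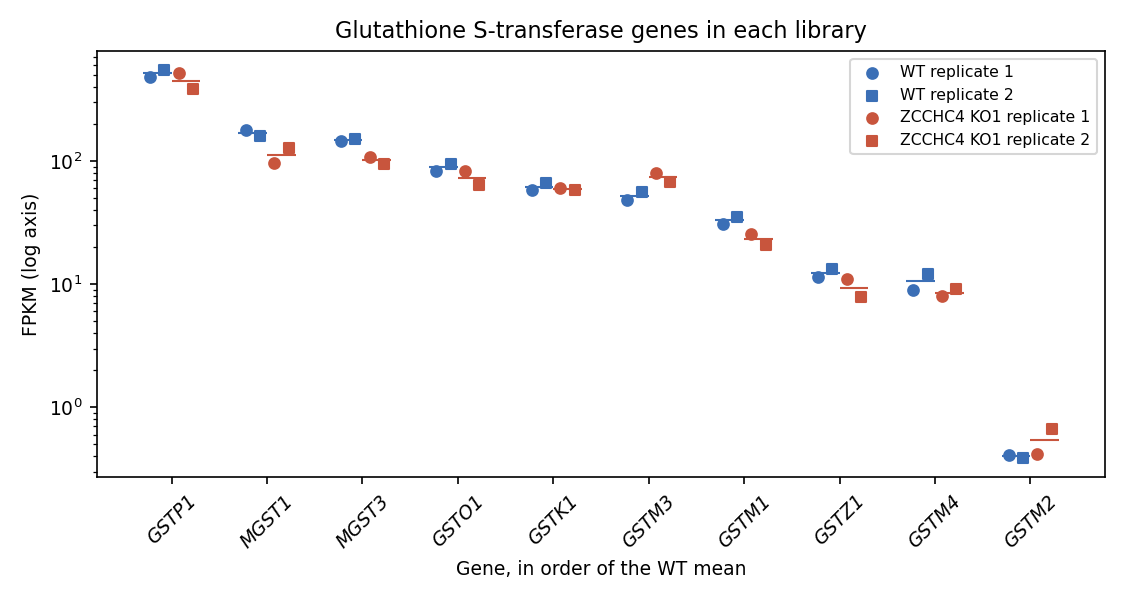
FPKM of each of the 10 genes (log axis) in the 2 WT libraries (blue) and the 2 ZCCHC4 KO1 libraries (red), with circles for replicate 1, squares for replicate 2 and short lines at the group means. Levels run from GSTP1, with 382.8 to 547.6 FPKM, down to GSTM2, with 0.39 to 0.67, and GSTM3 is the only tested gene of the set with both ZCCHC4 KO1 points above both WT points.

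To see whether the cells differed in these genes, limma was applied to log2(FPKM + 1) of every gene with 1 FPKM or more in 2 or more libraries, and fold changes of low genes are understated on this scale. GSTM2 did not pass this filter, so 9 of the 10 members were tested. None of the 9 was called at an adjusted p below 0.05 (limma with Benjamini-Hochberg adjustment over all genes tested). Of all 10726 tested genes 5.98 percent were called. The study's thresholds (an FDR under 0.001 with at least a 2-fold difference) were also applied to the limma fit. None of the 9 passed them there, and 0.0746 percent of all tested genes did. The study names no test for its own calls and reported far more genes at these thresholds, so this share is not the study's result. At an unadjusted p below 0.05 there were 4 members, MGST1, MGST3 and GSTM1 with lower values and GSTM3 with higher ones, where 22.9 percent of all tested genes had such a p. The adjusted p of the 9 members ran from 0.0804 to 0.834. Their median log2 fold change was -0.29, against -0.03 for all tested genes, and 8 of 9 had a negative value, against 53.2% of all tested genes. Both ZCCHC4 KO1 libraries lay below both WT libraries for 5 of the 9 members, where 28.5 percent of all tested genes did so, and above them for 1 member, where 23.1 percent did so.

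The microsomal members, which also reduce lipid hydroperoxides, had the lowest fold changes of the set. The FPKM of MGST1 (GC content 38.7%) was 177.1 and 159.8 in the WT libraries, against 96.4 and 128.8 in the knockout libraries. Both knockout values were below both WT values, and the log2 fold change was -0.59 (95% interval -1.03 to -0.16, adjusted p = 0.119, limma). The FPKM of MGST3 (GC content 46.1%) was 145.3 and 150.8 in the WT libraries, against 108.8 and 93.8 in the knockout libraries. The groups did not overlap here either, and the log2 fold change was -0.55 (95% interval -0.88 to -0.21, adjusted p = 0.0804, limma). Summed over both genes, the mean was 316.5 ± 8.37 FPKM (SD, n = 2) for WT cells against 213.9 ± 12.3 FPKM (SD, n = 2) for knockout cells, that is 67.6% of the WT mean. In bulk RNA, fewer cells that express a gene and less RNA per cell cannot be told apart. The call of both genes depended on the processing. MGST3 passed with FPKM rescaled to TPM (adjusted p = 0.0417, limma) and with quantile normalization (adjusted p = 0.0169, limma), where 486 and 1187 of all tested genes were called. MGST1 passed with the GC trend removed (adjusted p = 0.0460, limma), where 2831 of all 10559 tested genes were called. The log2 fold change of MGST3 was -0.65 without ZCCHC4 KO1 replicate 1, and that of MGST1 was -0.80 without ZCCHC4 KO1 replicate 2.

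Within the mu class, whose enzymes detoxify epoxides and other electrophiles, GSTM1 and GSTM3 had values on opposite sides. The FPKM of GSTM1 (GC content 53.6%) was 30.7 and 35.1 in the WT libraries, against 25.6 and 20.7 in the knockout libraries, with no overlap. Its log2 fold change was -0.50 (95% interval -0.91 to -0.08, adjusted p = 0.158, limma). The FPKM of GSTM3 (GC content 45.6%) was 48.5 and 55.8 in the WT libraries, against 80.6 and 67.7 in the knockout libraries, also with no overlap. Its log2 fold change was 0.50 (95% interval 0.12 to 0.88, adjusted p = 0.128, limma). With the GC trend removed, GSTM1 passed the threshold (adjusted p = 0.0278, limma) and GSTM3 did not (adjusted p = 0.0510, limma). Of all 10559 genes tested in that setting 2831 were called. Without ZCCHC4 KO1 replicate 2 the log2 fold change of GSTM3 was 0.62.

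The ratio of GSTM3 to GSTM1 within a library does not change when a library is scaled by 1 factor. It was 1.58 and 1.59 in the WT libraries, against 3.15 and 3.28 in the knockout libraries, a difference of 1.02 on the log2 scale, with an SD between libraries of 0.0074 in WT and 0.040 in ZCCHC4 KO1. The gap between the groups was thus far larger than the spread within them, although this pair was chosen after its values were seen, and an exact permutation test of 2 against 2 libraries cannot go below p = 0.333. The ratio of MGST1 to MGST3 was 1.22 and 1.06 in the WT libraries, against 0.886 and 1.37 in the knockout libraries, so that the groups overlapped. The ratio of GSTM1 to GSTM4 also overlapped, at 3.44 and 2.88 in the WT libraries, against 3.18 and 2.28 in the knockout libraries.

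The remaining mu class genes were lower in level. GSTM4 (GC content 56.0%) was at 8.92 and 12.2 in the WT libraries, against 8.03 and 9.07 in the knockout libraries, and these ranges overlapped (log2 fold change -0.26, 95% interval -0.79 to 0.27). GSTM2, which did not pass the filter, was at 0.41 and 0.39 in the WT libraries, against 0.42 and 0.67 in the knockout libraries, all near the floor of the table. The sum of GSTM1, GSTM2 and GSTM4, which depends less on how reads were divided among these 3 genes, was 40.0 and 47.7 in the WT libraries, against 34.0 and 30.4 in the knockout libraries. The sum of all 4 mu class members averaged 96.0 ± 10.6 FPKM (SD, n = 2) for WT cells against 106.4 ± 11.6 FPKM (SD, n = 2) for knockout cells, a difference within the spread of the libraries. Of the 20 tested genes nearest to the cluster, 10 on each side and looked at although no member was called, 10 had lower and 10 had higher values, with a median log2 fold change of 0.01 and 1 called gene.

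GSTP1, GSTO1, GSTK1 and GSTZ1 did not pass the test. GSTP1 (GC content 60.1%) was at 484.8 and 547.6 in the WT libraries, against 516.5 and 382.8 in the knockout libraries, with the first knockout library inside the WT range. Its log2 fold change was -0.21, and the 95% interval of -0.68 to 0.26 excludes a 2-fold change in either direction. Without ZCCHC4 KO1 replicate 2 the log2 fold change of GSTP1 was 0.00365.

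GSTO1, an omega class enzyme with thiol transferase and dehydroascorbate reductase activity (GC content 49.4%), was at 83.0 and 95.4 in the WT libraries, against 82.4 and 64.2 in the knockout libraries. The groups of GSTO1 were separated by less than 1 FPKM unit, and its log2 fold change was -0.29 (95% interval -0.71 to 0.13, adjusted p = 0.384, limma). GSTZ1, the maleylacetoacetate isomerase of tyrosine breakdown (GC content 56.0%), was at 11.5 and 13.2 in the WT libraries, against 10.9 and 7.81 in the knockout libraries (log2 fold change -0.38, 95% interval -0.92 to 0.16). GSTK1 (GC content 54.5%) was at 57.7 and 66.4 in the WT libraries, against 60.5 and 58.0 in the knockout libraries, and its groups overlapped (log2 fold change -0.06, 95% interval -0.40 to 0.27).

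Taken over all 10 genes, FPKM summed to 1048.0 and 1136.7 in the WT libraries, against 990.1 and 833.4 in the knockout libraries, or 83.5% of the WT mean, with both knockout sums below both WT sums. The log2 difference of the sums was -0.26, and it was -0.39 without ZCCHC4 KO1 replicate 1 and -0.14 without ZCCHC4 KO1 replicate 2. GSTP1 made up 46.3% and 48.2% of this sum in the WT libraries, against 52.2% and 45.9% in the knockout libraries. The share of GSTM3 was 4.63% and 4.91% in the WT libraries, against 8.14% and 8.13% in the knockout libraries. The 10 genes held between 0.160% and 0.211% of the summed FPKM of all genes in a library. The genes whose profile over the 4 libraries was most like that of GSTP1 were EIF4EBP1, PSCA and LRP3, at distances of 0.026, 0.030 and 0.042 on the centred log2 scale, where the median gene was at 0.646. Their transcripts had GC contents of 62.9%, 63.2% and 67.4%, and 68 genes were within a distance of 0.1.

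Among further transferases and related proteins, 3 genes passed the test. Of 23 such genes 16 were listed and 11 tested, and 2 were called lower (4.48 percent of all tested genes) and 1 higher (1.50 percent). GSTA4, an alpha class enzyme that conjugates the lipid peroxidation product 4-hydroxynonenal, fell from 1.78 and 2.34 FPKM in WT to 0.46 and 0.45 in ZCCHC4 KO1 (log2 fold change -1.07, standard error 0.183, adjusted p = 0.0319, limma). GSTT1, a theta class enzyme, fell from 17.8 and 17.0 to 9.65 and 7.65 (log2 fold change -0.94, standard error 0.185, adjusted p = 0.0457, limma). CLIC3, a chloride intracellular channel protein with a transferase fold, rose from 3.79 and 4.19 to 14.1 and 12.3 (log2 fold change 1.51, standard error 0.189, adjusted p = 0.0151, limma). In each of these 3 genes the groups did not overlap, which adds no support, since the genes were picked by their call in the same libraries. Of all tested genes, 28.5 percent had both knockout libraries below both WT libraries, and 23.1 percent had both above. The call of GSTT1 was lost without WT replicate 1 (adjusted p = 0.315) and without WT replicate 2 (adjusted p = 0.244), and that of GSTA4 without ZCCHC4 KO1 replicate 1 (adjusted p = 0.0567, limma). GSTT1 also lost it with no filter on low values, when rescaled to TPM and with the replicate block (adjusted p = 0.0858, 0.0502 and 0.140, limma), and GSTA4 with no filter (adjusted p = 0.0579, limma).

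The other 8 tested genes of this group did not pass. GSTT2 and GSTT2B, near-identical copies, summed to 10.1 and 11.5 in the WT libraries, against 8.40 and 7.84 in the knockout libraries. GSTO2, next to GSTO1 on chromosome 10, was at 7.80 and 8.77 in the WT libraries, against 10.4 and 9.14 in the knockout libraries (log2 fold change 0.21, 95% interval -0.24 to 0.67), and MGST2 was at 32.9 and 36.7 and at 31.5 and 29.6. GSTM5 did not exceed 0.05 in any library.

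**Figure D2:**
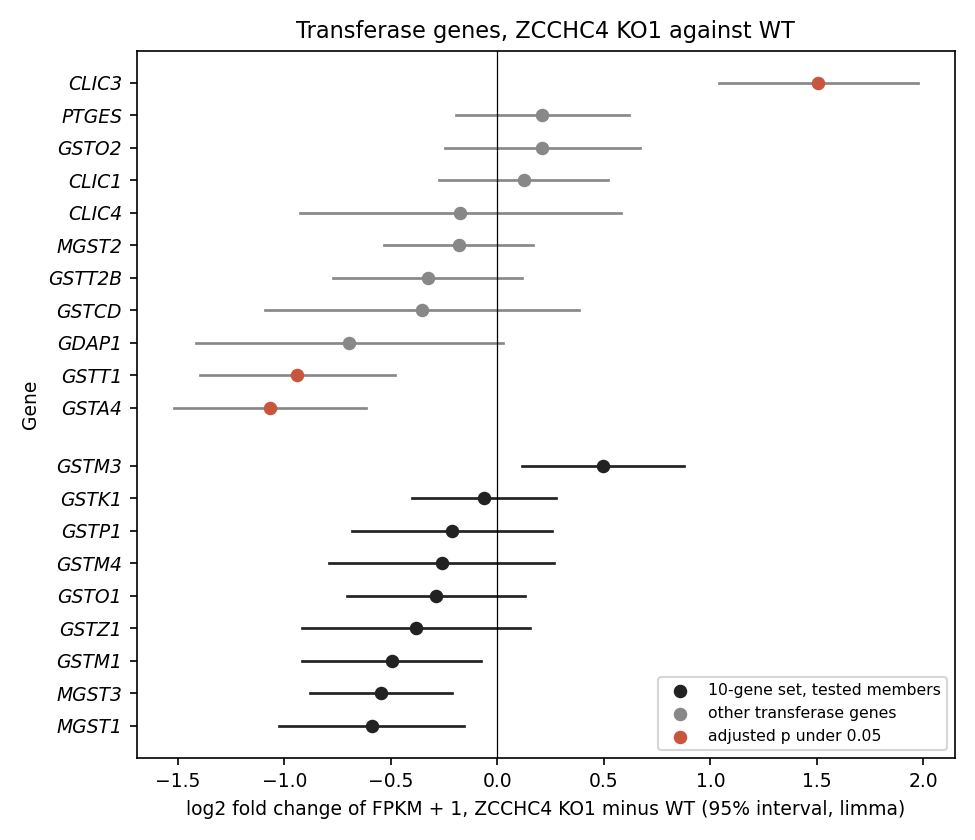
Log2 fold change (ZCCHC4 KO1 minus WT, on log2(FPKM + 1)) with its 95% interval from limma. The 9 tested genes of the set are in black and 11 other transferases and related proteins in grey, with genes at an adjusted p below 0.05 in red. In the set the values run from -0.59 for MGST1 to 0.50 for GSTM3 with none in red, and the red points are GSTA4 at -1.07, GSTT1 at -0.94 and CLIC3 at 1.51.

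The rest of the glutathione pathway was looked at through lists for the supply, use and disposal of glutathione. Together with the further transferases, 89 genes were on these lists, 81 were listed and 66 tested, of which 1 was called higher and 6 lower, or 10.6 percent against 5.98 percent of all tested genes. Their median log2 fold change was -0.09, against -0.03 for all tested genes. Of 9 tested genes for glutathione synthesis and cystine supply none was called by limma. An unadjusted p below 0.05 was found for 3 (CTH, SLC1A4 and SLC1A5), where 22.9 percent of all tested genes had such a p. CTH and SLC1A4 had lower values in ZCCHC4 KO1 (log2 fold change -0.71 and -0.75), and SLC1A5 had higher ones. SLC1A5, a glutamine carrier, was at 110.8 and 124.8 FPKM in WT cells and at 192.9 and 161.8 in the knockout (log2 fold change 0.58, adjusted p = 0.0861, limma). It passed after quantile normalization, with the GC trend removed and without ZCCHC4 KO1 replicate 2 (adjusted p = 0.0145, 0.0088 and 0.0191, limma). SLC3A2, the partner chain of the cystine carrier, overlapped between the groups, at 210.0 and 235.4 in the WT libraries, against 315.0 and 233.0 in the knockout libraries.

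The list for breakdown of glutathione and its conjugates had the lowest median of the pathway lists, at -0.51. Of its 9 tested genes 2 were called lower, where 4.48 percent of all tested genes were called lower. GGT5 fell from 3.48 and 3.23 FPKM in WT to 0.54 and 0.68 in ZCCHC4 KO1 (log2 fold change -1.44, standard error 0.179, adjusted p = 0.0149, limma). GGT1, gamma-glutamyltransferase, fell from 5.78 and 5.99 to 1.78 and 1.77 (log2 fold change -1.31, standard error 0.185, adjusted p = 0.0195, limma). Both kept their call when each library was left out in turn, and GGT1 lost it with no filter on low values (adjusted p = 0.0614, limma). GGT1 belongs to a family with near copies, so its reads could be divided differently. The other 7 tested genes of this list did not pass. By the sign of the log2 fold change, 7 of the 9 were lower in ZCCHC4 KO1 and 2 were higher, where 53.2% of all tested genes were lower.

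Of 13 tested redox enzymes 1 was called, where 5.98 percent of all tested genes were called. By the sign of the log2 fold change, 7 of the 13 were lower in ZCCHC4 KO1 and 6 were higher. GLRX, glutaredoxin, fell from 7.77 and 8.56 FPKM in WT to 3.38 and 3.43 in ZCCHC4 KO1 (log2 fold change -1.06, standard error 0.188, adjusted p = 0.0354, limma). Its call was lost when WT replicate 1, WT replicate 2 or ZCCHC4 KO1 replicate 1 was left out (adjusted p = 0.194, 0.255 and 0.0514, limma), and also with no filter, when rescaled to TPM and with the replicate block (adjusted p = 0.0822, 0.0502 and 0.144, limma). Among 7 tested genes for NADPH supply, which keeps glutathione reduced, 1 was called, beside the same 5.98 percent of all tested genes. IDH2, the mitochondrial isocitrate dehydrogenase, fell from 19.4 and 22.2 to 8.65 and 6.12 (log2 fold change -1.39, standard error 0.214, adjusted p = 0.0251, limma), a call lost without WT replicate 2 (adjusted p = 0.0566) and with no filter (adjusted p = 0.0659, limma).

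None of the 6 tested export pumps, 3 tested genes of the glyoxalase system or 8 tested regulators of NRF2 was called at an adjusted p below 0.05 (limma), and of these 17 genes 4 had an unadjusted p below 0.05, a share near the 22.9 percent of all tested genes, namely GLO1, KEAP1, NFE2L1 and BACH1, the last of them named after its values were seen. ABCC1, a pump for glutathione conjugates, was at 16.2 and 17.2 in the WT libraries, against 19.0 and 21.0 in the knockout libraries (log2 fold change 0.24, 95% interval -0.14 to 0.63). ABCC2, a related pump, was at 15.0 and 11.7 for WT cells and at 8.06 and 12.4 for the knockout, and its groups overlapped. GLO1, which clears methylglyoxal with glutathione, was at 105.3 and 87.4 in the WT libraries, against 46.9 and 73.5 in the knockout libraries (log2 fold change -0.70, 95% interval -1.28 to -0.12, adjusted p = 0.154, limma). It passed with the GC trend removed (adjusted p = 0.0118, limma), and its log2 fold change was -1.02 without ZCCHC4 KO1 replicate 2. HAGH, the next enzyme of that route, was at 23.9 and 27.4 and at 34.6 and 24.6. KEAP1, the adaptor that marks NRF2 for breakdown, was at 40.9 and 48.1 in the WT libraries, against 62.3 and 55.2 in the knockout libraries (log2 fold change 0.39, adjusted p = 0.195, limma). NFE2L1 was at 65.7 and 67.1 in the WT libraries, against 51.2 and 50.5 in the knockout libraries (log2 fold change -0.38, adjusted p = 0.143, limma). With the GC trend removed KEAP1 and NFE2L1 passed (adjusted p = 0.0328 and 0.0268, limma). Of all 10559 genes tested in that setting, in which GLO1 also passed, 2831 were called.

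**Figure D3:**
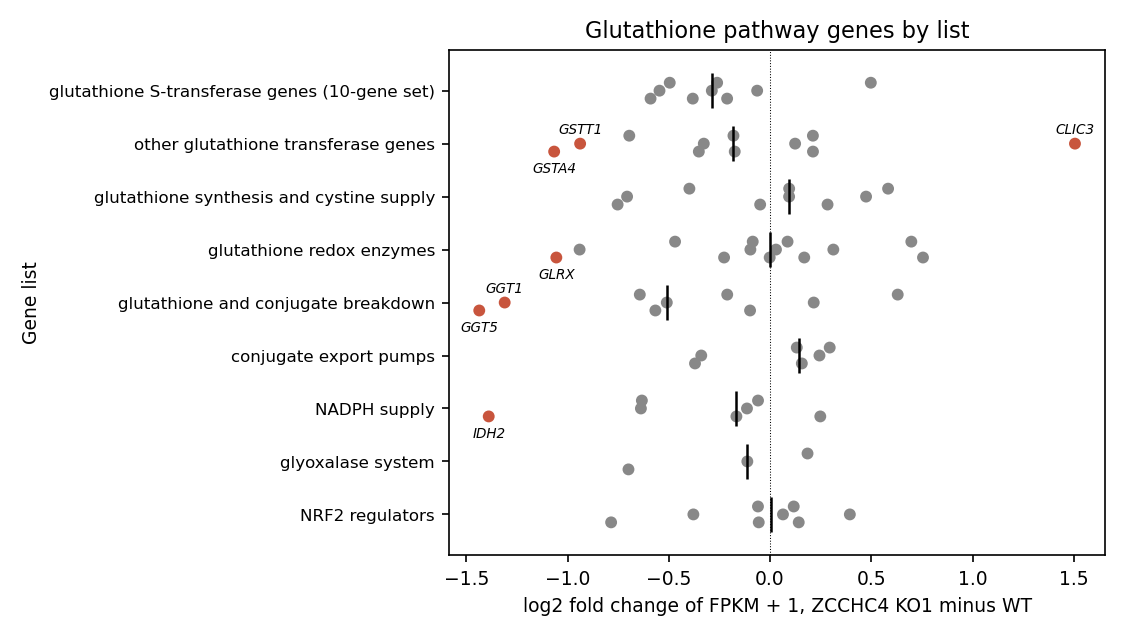
Log2 fold change (ZCCHC4 KO1 minus WT, on log2(FPKM + 1)) of each tested gene by list, with black lines at the list medians and the genes at an adjusted p below 0.05 in red and named. The 10-gene set has its median at -0.29 and no red point, the list for breakdown of glutathione and conjugates has its median at -0.51 with GGT5 and GGT1 in red, and CLIC3 is the red point above 0.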

How the data were processed

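The authors sequenced 2 libraries each of WT and ZCCHC4 KO1 cells on the BGISEQ-500 platform (the labels name an Illumina HiSeq), mapped the reads to GRCh38 (Bowtie2), quantified them with RSEM, and deposited the FPKM of 16658 genes, 1 column per library. Read filters, annotation and versions are not given in the sources used here. Symbols and positions came from RefSeq (GRCh38.p14) for 16384 genes, and GC content from GENCODE v44 (MANE Select, else the longest transcript) for 98.4% of the tested genes.

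Genes with an FPKM of at least 1 in at least 2 libraries (10726) entered a limma fit of log2(FPKM + 1) (limma 3.58.1, R 4.3.3, lmFit, eBayes with a trend, Benjamini-Hochberg adjustment), and were called at an adjusted p below 0.05. The fit was run on simulated data with independent errors, which does not test it under the differences with GC content that these libraries share across genes. Count models need counts and were left out, the depth is unknown, and the precision rests on 2 libraries per group. The 10 members and all lists were chosen with earlier results of these data known, and some list genes are not reported here. All members are named, as are up to 4 called genes of each list by p, or else the 2 with the highest mean FPKM, and the 3 genes nearest to GSTP1 by Euclidean distance of centred profiles. CTH, SLC1A4, BACH1, GSTO2, MGST2, GSTT2, GSTT2B and GSTM5 were named after their values were seen. Coding sequences of the mu class were aligned with Biopython 1.88. The alternatives are given under the dependence on processing.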

Additional observations from a re-analysis of the deposited data

How the results depend on the processing

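Of 126 values for the 9 tested members under the alternatives, 110 kept their direction and side of the threshold, 13 passed the threshold and 3 changed sign. Of the 13 that passed, 6 came from the crossed pairing described below, which was not planned. The number of members called was 0 as reported and remained 0 under a pseudocount of 0.1, a minimum FPKM of 5, no filter, with median-ratio scaling, with eBayes without a trend and at the study's thresholds, and 0 members reached a fold change of 2 without a test. It was 1 with FPKM rescaled to TPM, 1 after quantile normalization, 2 once the GC trend was removed, and ranged from 0 to 2 when 1 library was left out, where a lone library is assumed to vary like the other group. All tested genes called numbered 641 (161 higher and 480 lower), but 344 with no filter, 1187 (466 and 721) after quantile normalization, 1177 (421 and 756) after median-ratio scaling, 2831 (1370 and 1461) with the GC trend removed, and from 370 (without WT replicate 1) to 1595 (without ZCCHC4 KO1 replicate 2) with 1 library left out. Other glutathione pathway genes called numbered 7, but 3 with no filter (CLIC3 and GGT5, which kept their call, and GSTT2, at 0.32 and 0.39 FPKM in WT and listed at 0 in both knockout libraries), 11 after median-ratio scaling, 24 with the GC trend removed, 0 at the study's thresholds, and from 5 to 16 (without ZCCHC4 KO1 replicate 2) with 1 library left out. ZCCHC4 had a log2 fold change of -1.92 with a pseudocount of 0.1, -1.48 with no filter and -1.71 rescaled to TPM, where it missed the threshold, and ran from -1.81 to -1.15 with 1 library left out. GSTK1 was at 0.00487 with median-ratio scaling. With 1 library left out, GSTK1 ran from -0.163 to 0.0361, GSTP1 from -0.428 to 0.00365 and HAGH from -0.053 to 0.423. What caused these shifts was not tested.

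Same-numbered libraries share only a number, and their deviations had a correlation of -0.787 across genes. With the replicate block 0 members, 5 pathway genes and 462 of all tested genes were called. A crossed pairing was added once the data had been seen, and with it 6 members, 36 pathway genes and 5295 of all tested genes were called, from 1 residual degree of freedom. The depth is unknown, so no counting error can be given for low genes such as GSTM2. edgeR and DESeq2 were not run, since the values are FPKM.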

Other observations

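GSTT2B, GGT5 and GGT1 lie close together on chromosome 22, a stretch looked at after its values were seen. From the start of GSTT2B at 23957414 to the end of GGT1 at 24628996 (RefSeq, GRCh38.p14), 11 genes were tested, all 11 had lower mean values in ZCCHC4 KO1, and 3 were called, namely GGT5, GGT1 and SUSD2, where 21 of the 264 tested genes of chromosome 22 and 5.98 percent of all tested genes were called. SUSD2, which encodes a membrane protein, fell from 8.61 and 8.77 FPKM in WT to 3.03 and 2.70 in ZCCHC4 KO1 (log2 fold change -1.33, adjusted p = 0.0197, limma). The median log2 fold change of the stretch was -0.33, against -0.17 for all of chromosome 22, where 189 genes had lower values. GSTT1, called lower above, was listed on chromosome 22 at 270308-278486, so these bounds left it out of the 11 genes. Whether that position is on the main chromosome 22 sequence was not checked. Whether GSTT1 lies within the stretch is therefore not known here, and the counts of the stretch do not include it. The members of the 10-gene set lie on other chromosomes.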
